A study of Mus musculus with 9 samples.

Results

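Liver sinusoidal endothelial genes were followed across the series as 10 genes, of which 7 are enriched in the endothelium of the liver sinusoid (Fcgr2b, Stab1, Stab2, Flt4, Lyve1, Clec4g and Bmp2) and 3 mark endothelial cells in general (Kdr, Pecam1 and Cdh5). Every probe set that the array annotation pairs with exactly 1 gene symbol, that symbol being one of these, was taken. This gave 17 probe sets for all 10 genes, 13 of them sinusoid-enriched and 4 general, out of 41782 probe sets and 17514 named genes on the array. A probe set is a group of short oligonucleotides on the array that reads the RNA of a gene, and several probe sets of a gene share their target, so that they are not independent.

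The samples were total liver RNA of c57Bl/6 mice. The 5 HFD arrays carry the label of a high-fat diet with 21% fat, which supplied 42% of calories from fat, and the 4 control arrays the label of a control diet, the mice having received chow until the study. The labels leave out sex, age, weeks on the diet and batch. They also do not say whether the arrays of a group come from different animals, so that a p-value measures no more than the spread between arrays, some of which may be technical. The question put to the data is how these endothelial transcripts stood in livers of HFD mice relative to control mice.

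Values are given on the log2 scale relative to a baseline set for every probe set by the authors, and their precision is limited by the number of arrays. The values show how a probe set varied between arrays but not how strongly a gene was expressed, so that the presence of liver or endothelial RNA could not be checked from levels and genes cannot be ranked by abundance. The spread (SD) of all values was 0.33 in HFD replicate 5 and between 0.22 and 0.27 in the other 8 arrays. Idi1, an isomerase of isoprenoid synthesis that was picked after its values were seen, lay between -1.71 and -1.11 in the 5 HFD arrays and between 1.81 and 2.68 in the 4 control arrays (probe set 1423804_a_at), so that none of the HFD arrays stood with the controls for that gene.

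Sinusoidal endothelial cells line the smallest blood vessels of the liver. Unlike other capillaries these vessels are perforated and lack a continuous basement membrane, and their endothelium removes waste molecules and immune complexes from the blood through scavenger receptors. The same cells release signals that act on hepatocytes, among them bone morphogenetic proteins, which control the iron hormone hepcidin. The general endothelial genes encode proteins of vessel growth and of contacts between cells that arterial, venous and capillary endothelium share.

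RefSeq promoter sequences of build GRCm38.p6, which run from 250 bases before to 50 bases after the start of a gene, were at hand for 6 of the 10 genes (Fcgr2b, Stab1, Stab2, Flt4, Clec4g and Kdr). They are shown for Fcgr2b and Stab1, the genes with probe sets past the threshold, and for Stab2, the relative of Stab1. Capitals mark matches, on either strand, to AGGAAG, 1 form of the core bound by ETS factors, which act in all endothelial cells. The Fcgr2b window is chr1:170976022-170976321, the Stab1 window chr14:31168592-31168891 and the Stab2 window chr10:87007893-87008192, all on the minus strand and printed 5′ to 3′ along the gene.
Fcgr2b: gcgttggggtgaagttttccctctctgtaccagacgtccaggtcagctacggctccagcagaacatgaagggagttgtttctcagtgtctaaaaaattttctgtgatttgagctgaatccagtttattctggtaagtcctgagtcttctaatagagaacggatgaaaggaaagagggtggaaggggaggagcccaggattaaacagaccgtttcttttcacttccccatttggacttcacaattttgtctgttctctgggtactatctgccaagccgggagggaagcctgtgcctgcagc
Stab1: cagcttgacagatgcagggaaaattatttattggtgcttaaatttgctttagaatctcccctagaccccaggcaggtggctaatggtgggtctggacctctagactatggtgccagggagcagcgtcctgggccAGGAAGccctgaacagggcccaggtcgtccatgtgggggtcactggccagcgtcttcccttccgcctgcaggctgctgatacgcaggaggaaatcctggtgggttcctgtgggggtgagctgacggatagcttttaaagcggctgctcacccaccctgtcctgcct
Stab2: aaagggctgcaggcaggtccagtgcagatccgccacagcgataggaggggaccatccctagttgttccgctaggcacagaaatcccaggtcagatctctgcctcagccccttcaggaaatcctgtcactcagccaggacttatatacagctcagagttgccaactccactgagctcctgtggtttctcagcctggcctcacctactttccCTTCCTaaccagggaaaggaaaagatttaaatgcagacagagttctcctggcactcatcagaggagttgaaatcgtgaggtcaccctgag
Stab1 and Stab2 each held 1 match to these letters and Fcgr2b none, and other forms of the core were not searched. Of the 6 promoters 3 held the ETS letters, against 35.35% of 32851 promoters of 300 bases. The letters AGATAA, a core bound by GATA factors, were in 0 of the 6, against 11.18% of all such promoters. A match describes letters in the window and no binding.

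All 17 endothelial probe sets had a lower mean in the HFD group than in the control group, and 4 of them fell past the threshold (limma with Benjamini-Hochberg adjustment over all 41782 probe sets, adjusted p under 0.05). These were 3 of the 4 probe sets of Fcgr2b and the probe set of Stab1, which is 23.5% of the 17. Of all probe sets tested, 1.23% were lower past the same threshold and 52.1% had a negative difference. None of the 4 general endothelial probe sets passed. The 95% interval of the difference was -1.71 to -0.39 for Kdr, -1.18 to -0.12 for Pecam1, and -0.83 to -0.09 and -0.47 to -0.04 for the Cdh5 probe sets. The median difference, HFD minus control, was -0.97 over the 13 sinusoid-enriched probe sets and -0.56 over the 4 general ones, against -0.01 over all probe sets. Fcgr2b alone supplied 4 of the 13. With the probe sets of a gene averaged first, the mean difference was -0.85 for sinusoid-enriched genes and -0.69 for general ones. In 9 of the 17 every HFD array lay below every control array (52.9%), against 3.50% of all probe sets. At an unadjusted p under 0.05, 14 of the 17 were lower, against 7.56% of all probe sets. With 1 value per gene, 3 of the 10 genes passed, against 2.02% of all genes lower when probe sets were averaged (Fcgr2b, Stab1 and Bmp2 passed) and 1.87% when the most variable probe set stood for the gene (Fcgr2b, Stab1 and Flt4 passed). Of all probe sets 2.04% were higher past the threshold, and none of the 17 was. Fewer endothelial cells and less RNA per endothelial cell cannot be told apart in RNA from whole liver. Macrophages also express Fcgr2b and Stab1, the genes of all 4 probe sets past the threshold. For these genes less macrophage RNA cannot be told apart from the former either.

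The count of 4 changed when 1 array was left out. With control replicate 1, 2, 3 or 4 or HFD replicate 3 left out it was 0. Leaving out HFD replicate 2 gave 1, HFD replicate 5 gave 2, HFD replicate 1 gave 7 and HFD replicate 4 gave 10. The count of all probe sets past the threshold, 1363 with all arrays, moved as well and ran from 546 to 1481 in these fits. The median difference of the 17 probe sets ran from -0.94 to -0.70.

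**Figure D1:**
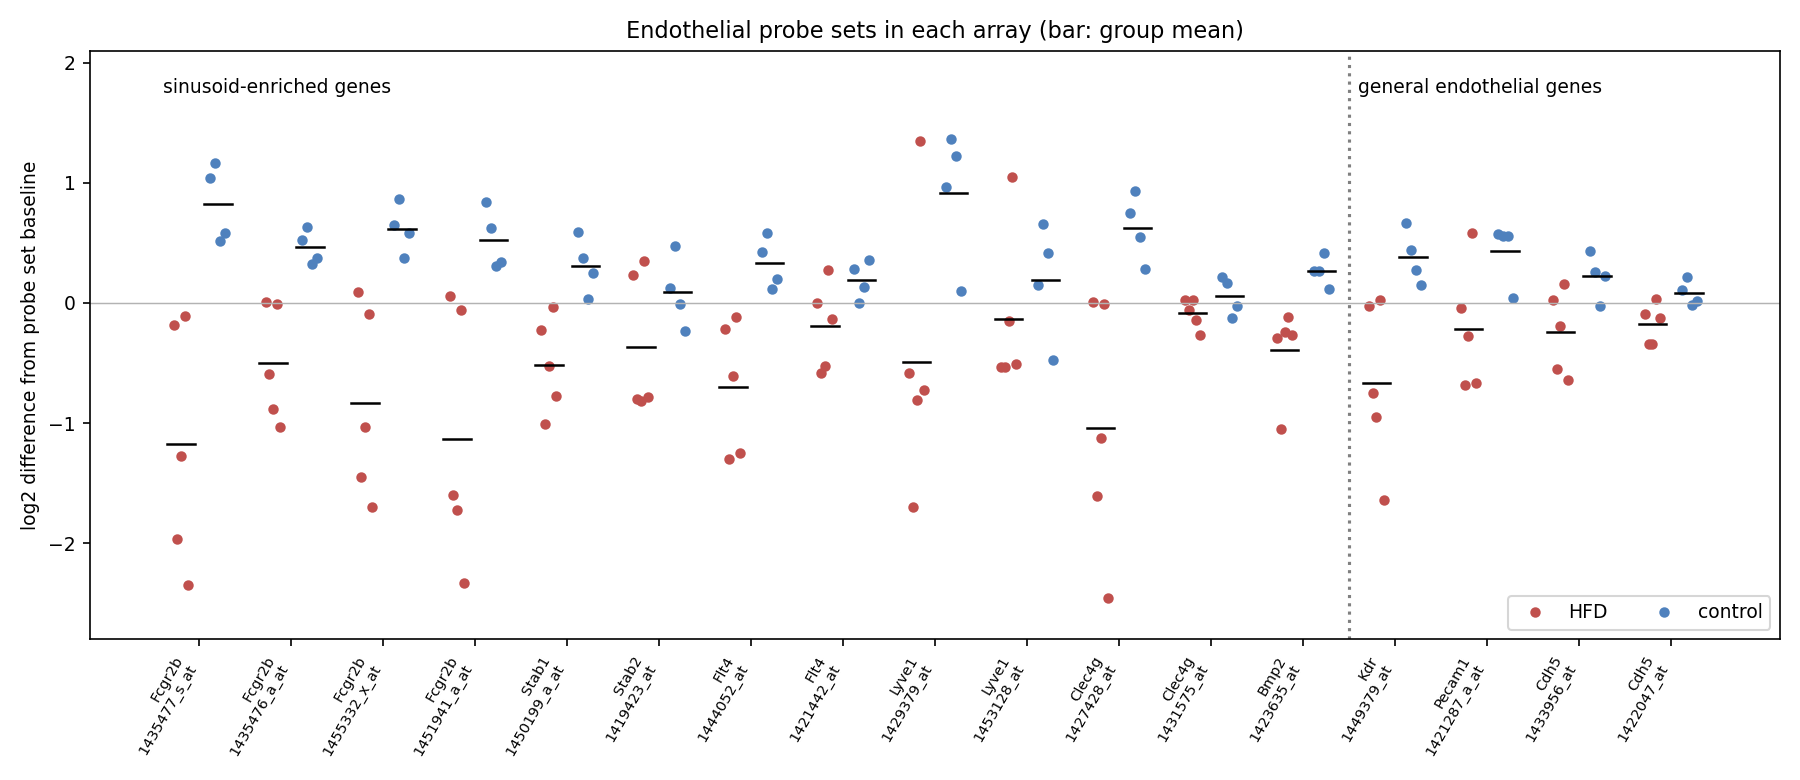
Log2 difference from the baseline of each probe set (y axis) for the 17 endothelial probe sets (x axis), with 1 point per array, the 5 HFD arrays at left and the 4 control arrays at right of each pair, and a bar at the group mean. HFD points spread more widely than control points in most probe sets. In Fcgr2b probe set 1435477_s_at HFD values run from -2.35 to -0.11, all below the control values of 0.52 to 1.17.

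Fcgr2b, which encodes the inhibitory Fc gamma receptor that takes up immune complexes in the sinusoid, had the largest difference. In probe set 1435477_s_at HFD replicates 1 to 5 read -0.18, -1.97, -1.27, -0.11 and -2.35, against 1.04, 1.17, 0.52 and 0.58 in control replicates 1 to 4. Every HFD array was below every control array, and HFD replicates 2, 3 and 5 were far below HFD replicates 1 and 4. The difference was -2.00 ± 0.44 (SE), a 4.01-fold lower signal (adjusted p = 0.0340, limma). With an array left out the call was kept in 3 of 9 fits, those without HFD replicate 1, 4 or 5, and the adjusted p reached 0.113 (limma).

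The other Fcgr2b probe sets gave the same order of groups with other sizes. Probe set 1435476_a_at read 0.01, -0.60, -0.88, -0.01 and -1.03 in the HFD arrays, against 0.52, 0.64, 0.32 and 0.38 in the control arrays, and fell by 0.97 ± 0.21 (adjusted p = 0.0363, limma). Probe set 1455332_x_at fell by 1.45 ± 0.34 (adjusted p = 0.0456, limma). The fourth, 1451941_a_at, differed by -1.66 ± 0.45 and was not past the threshold (adjusted p = 0.0795, limma). The first 3 are annotated with the same transcript, so that they are not independent of each other. Names ending in _s_at or _x_at mark probe sets that may also bind related transcripts, and the Fc gamma receptor genes are close relatives.

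Stab1, which encodes stabilin-1, a scavenger receptor of sinusoidal endothelium and of some macrophages, fell as well. HFD arrays read -0.22, -1.01, -0.53, -0.03 and -0.77, against 0.59, 0.37, 0.03 and 0.25 in the control arrays. The groups did not overlap, but HFD replicate 4 and control replicate 3 nearly met at the baseline. The difference was -0.82 ± 0.19, or 1.77-fold lower (adjusted p = 0.0450, limma). With an array left out the call was kept in 2 of 9 fits, those without HFD replicate 1 or 4, and the adjusted p reached 0.129 (limma).

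Stab2, which encodes stabilin-2, the main receptor that clears hyaluronan from the blood, was not past the threshold. Its HFD arrays read 0.23, -0.80, -0.82, 0.35 and -0.78, against 0.12, 0.48, -0.01 and -0.23 in the control arrays. HFD replicates 1 and 4 lay among the controls and HFD replicates 2, 3 and 5 below all of them. The difference was -0.45 ± 0.27, with a 95% interval of -1.06 to 0.15 (adjusted p = 0.458, limma).

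Lyve1, a hyaluronan receptor of lymphatic and sinusoidal endothelium that some macrophages also carry, gave the widest spread among HFD arrays. Probe set 1429379_at read -0.58, -1.70, -0.81, 1.35 and -0.73 in the HFD arrays, against 0.97, 1.37, 1.22 and 0.10 in the control arrays. HFD replicate 4 was higher than all but 1 control array, and the other 4 HFD arrays were below every control array. The difference was -1.41 ± 0.50 (adjusted p = 0.184, limma), and with each array left out in turn 1 of 9 fits passed, that without HFD replicate 4 (-1.87, adjusted p = 0.0129, limma), with the adjusted p reaching 0.382 in the others. The second probe set, 1453128_at, differed by -0.32 ± 0.33 (adjusted p = 0.697, limma) and did not pass without HFD replicate 4 either (-0.62, adjusted p = 0.167, limma).

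Clec4g, which encodes the C-type lectin LSECtin of sinusoidal endothelium, depended on the probe set. In 1427428_at the HFD arrays read 0.01, -1.60, -1.12, -0.01 and -2.46, against 0.75, 0.93, 0.55 and 0.28 in the control arrays. The groups did not overlap there, and the difference of -1.67 ± 0.45 was not past the threshold (adjusted p = 0.0772, limma). The other probe set, 1431575_at, kept within 0.27 of the baseline in all arrays and differed by -0.14 ± 0.10 (adjusted p = 0.530, limma).

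Of the genes for growth factor receptors, Flt4 encodes the receptor for VEGF-C, which sinusoidal and lymphatic endothelium carry. Probe set 1444052_at read -0.22, -1.30, -0.61, -0.11 and -1.25 in the HFD arrays, against 0.43, 0.58, 0.11 and 0.20 in the control arrays. The groups did not overlap, and at -1.03 ± 0.25 the difference was just short of the threshold (adjusted p = 0.0507, limma). The second probe set, 1421442_at, overlapped between the groups and differed by -0.39 ± 0.17 (adjusted p = 0.279, limma).

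Kdr, the general endothelial gene for the main VEGF receptor of blood vessels, differed about as much as Flt4 probe set 1444052_at. It differed more than Flt4 probe set 1421442_at. Its HFD arrays read -0.02, -0.75, -0.95, 0.02 and -1.64, against 0.67, 0.44, 0.27 and 0.15 in the control arrays. Again no HFD array reached the lowest control array, and HFD replicates 1 and 4 stood nearest to it. The difference was -1.05 ± 0.30, or 2.07-fold lower, and not past the threshold (adjusted p = 0.0937, limma).

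Bmp2, the gene for a bone morphogenetic protein that sinusoidal endothelium makes, had HFD values of -0.29, -1.05, -0.24, -0.12 and -0.26, against 0.27, 0.27, 0.41 and 0.12 in the control arrays. The groups did not overlap, and HFD replicate 2 stood apart from the other HFD arrays. The difference of -0.66 ± 0.17 was not past the threshold (adjusted p = 0.0655, limma), and 1 of 9 fits with an array left out passed, that without HFD replicate 2 (-0.50, adjusted p = 0.0206, limma), with the adjusted p reaching 0.175 in the others.

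The genes of contacts between endothelial cells overlapped between the groups. Pecam1, an adhesion molecule of endothelial junctions, read -0.04, -0.69, -0.27, 0.58 and -0.67 in the HFD arrays, against 0.58, 0.56, 0.56 and 0.04 in the control arrays. HFD replicate 4 was as high as the highest control array. The difference was -0.65 ± 0.24 (adjusted p = 0.199, limma), and 1 of 9 fits with an array left out passed, that without HFD replicate 4 (-0.85, adjusted p = 0.0292, limma). The adjusted p reached 0.381 in the others and was 0.184 without control replicate 4 (limma), the control array that stood apart. Cdh5, the gene for the cadherin of endothelial junctions, had differences of -0.46 ± 0.17 in probe set 1433956_at (adjusted p = 0.196, limma) and -0.26 ± 0.10 in probe set 1422047_at (adjusted p = 0.211, limma).

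**Figure D2:**
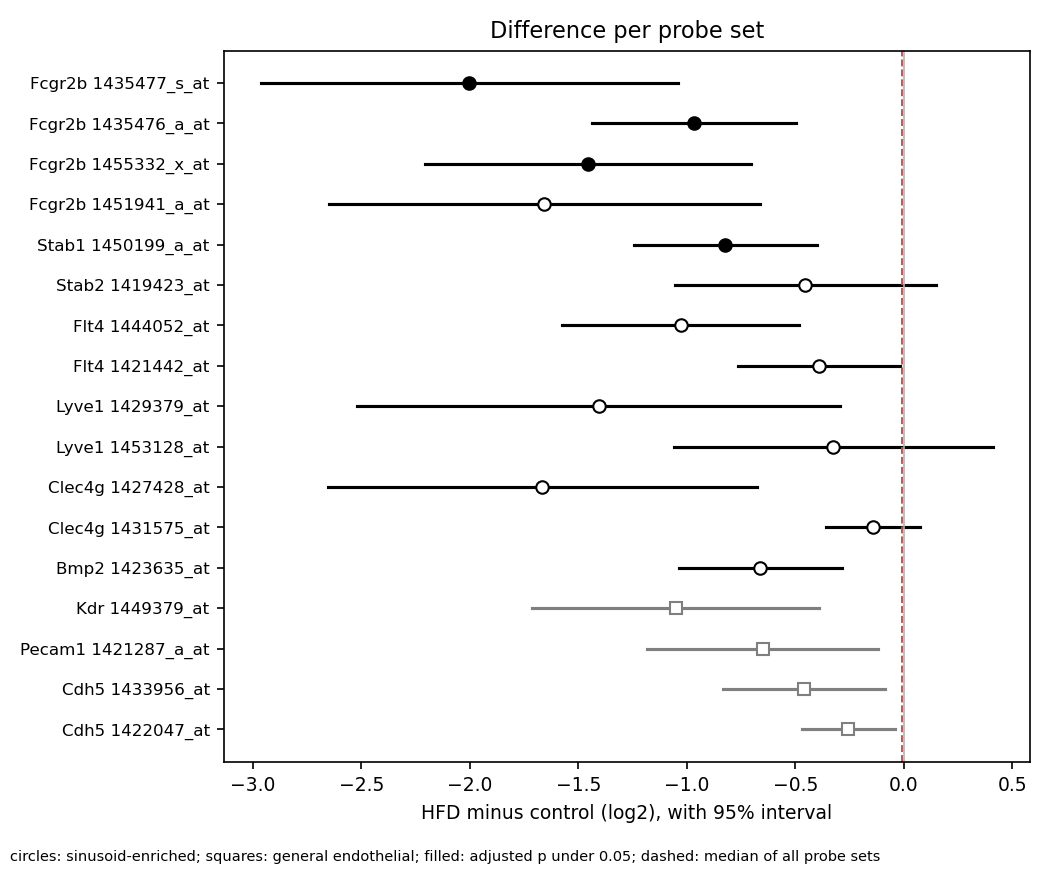
Difference in log2 signal, HFD minus control (x axis), with its 95% interval, for each of the 17 endothelial probe sets (y axis), with circles for sinusoid-enriched and squares for general endothelial genes. Filled points passed the threshold, all 17 points lie left of 0, and the dashed line at -0.01 is the median of all probe sets.

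The means of the sinusoid-enriched and of the general endothelial genes were set beside each other array by array. With the probe sets of a gene averaged first, the mean of the 7 sinusoid-enriched genes was -0.50 ± 0.52 (SD, n = 5) in HFD and 0.35 ± 0.19 (SD, n = 4) in control. That of the 3 general genes was -0.36 ± 0.46 (SD, n = 5) in HFD and 0.32 ± 0.17 (SD, n = 4) in control. The groups overlapped in both means, since HFD replicate 4, at 0.19 and 0.23, stood above control replicate 4, at 0.12 and 0.11. The sinusoid-enriched mean minus the general mean was -0.10, -0.39, -0.13, -0.04 and -0.01 in HFD replicates 1 to 5, against -0.06, 0.13, 0.01 and 0.01 in control replicates 1 to 4. HFD replicates 4 and 5 lay within the range of the controls in this measure and HFD replicates 1, 2 and 3 below it. The group means of this measure differed by -0.16, by -0.10 without HFD replicate 2 and by -0.43 with the most variable probe set of each gene in place of the average, and this difference was not tested, since the genes were chosen with results of these data known.

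Within the HFD group, replicates 1 and 4 were nearest to the controls at the median. The median over the 17 probe sets was -0.80 in HFD replicate 2, -0.61 in HFD replicate 3 and -0.77 in HFD replicate 5. It was -0.02 in HFD replicate 1 and -0.01 in HFD replicate 4, against 0.52, 0.56, 0.30 and 0.20 in control replicates 1 to 4. HFD replicate 5 was below every control array in all 17 probe sets, and HFD replicate 4 in 10. The SD among HFD arrays was 2.28 times that among control arrays at the median of the 17 probe sets, against 1.24 times over all probe sets.

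Of the lists for other liver cells, that of Kupffer cell markers had the lowest median difference (-1.35). Of 19 probe sets of Kupffer cell markers, the resident macrophages of the sinusoid, 13 fell and 0 rose, against 1.23% of all probe sets that fell. The mean over these markers was -0.39, -0.78, -0.60, 0.11 and -1.28 in HFD replicates 1 to 5, against 0.96, 1.34, 0.76 and 0.17 in control replicates 1 to 4. HFD replicate 4 was the highest HFD array and control replicate 4 the lowest control array, as in the mean of the sinusoid-enriched genes. Csf1r, the receptor that macrophages need to survive, fell by 1.15 ± 0.18 (adjusted p = 0.00841, limma), and Timd4 and Folr2 fell by 1.16 ± 0.20 and 1.25 ± 0.22. Macrophages also express Fcgr2b, Stab1 and Lyve1, and the part of these cells in the endothelial differences was not tested. The mean of the hepatocyte markers lay between -0.27 and -0.0034 in the HFD arrays and between 0.02 and 0.24 in the control arrays. Every HFD array was thus below every control array in this mean, and the group means differed by -0.24.

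**Figure D3:**
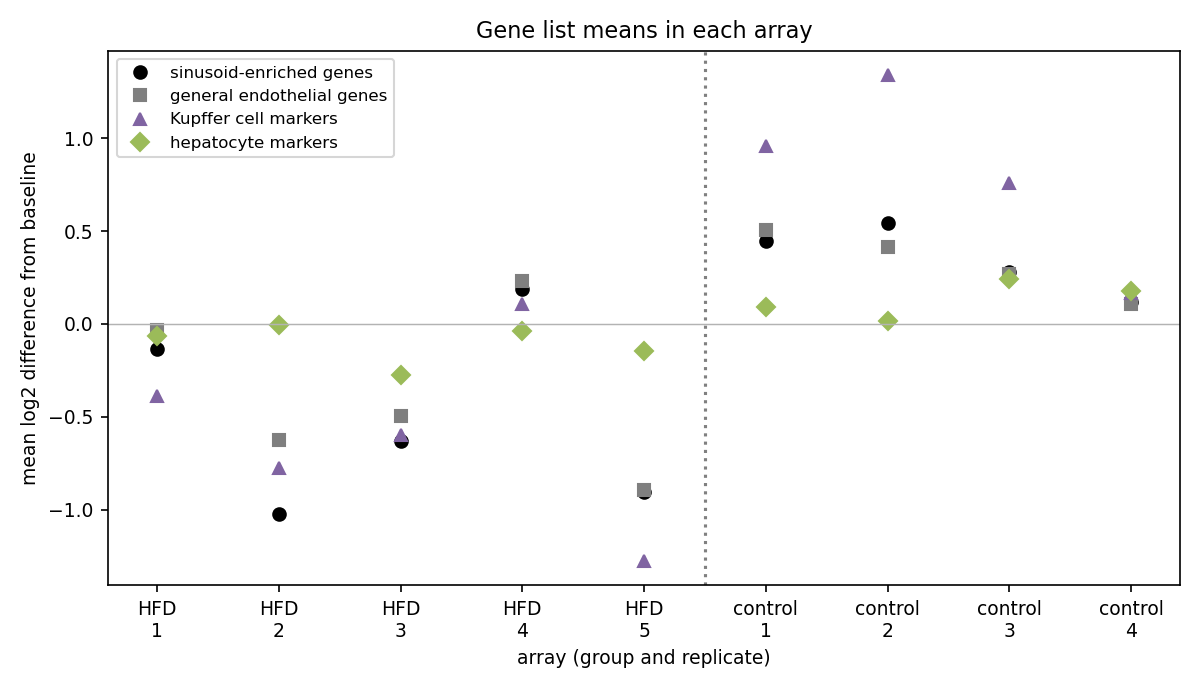
Mean log2 difference from baseline (y axis) of the sinusoid-enriched genes, the general endothelial genes, the Kupffer cell markers and the hepatocyte markers in each of the 9 arrays (x axis), HFD arrays left of the dotted line. Sinusoid-enriched and general endothelial means are both lowest in HFD replicates 2, 3 and 5 and lie farthest apart in HFD replicate 2, and the Kupffer cell markers reach from -1.28 in HFD replicate 5 to 1.34 in control replicate 2.

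For Fcgr2b, the relatives and the B cells that also express the gene were examined. Of all probe sets 1.23% fell past the threshold, and among 6 probe sets of other Fc gamma receptor genes 1 fell and 0 rose. This was Fcgr3, an activating receptor of myeloid cells (-1.10 ± 0.25, adjusted p = 0.0428, limma), while Fcgr1 (-0.56 ± 0.14) and Fcer1g (-0.92 ± 0.24), the shared signalling chain, were not past the threshold. The groups overlapped for all 3. In 1 of the 6 probe sets, that of another of these genes, every HFD array lay below every control array, against 3.50% of all probe sets. Of the 6 differences 5 were negative, against 52.1% of all probe sets. Of 7 probe sets of B cell markers none passed, with a median difference of -0.03.

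Further endothelial genes had lower HFD means in most cases and few passed. Of 17 probe sets of 9 other sinusoidal genes 0 passed in limma, while 14 had a negative difference and the median was -0.63. Mrc1, the mannose receptor of sinusoidal endothelium and macrophages, differed by -1.98 ± 0.50 (adjusted p = 0.0610, limma), Ehd3, which acts in endocytosis, by -0.86 ± 0.22 and Oit3 by -1.28 ± 0.34. Of 36 probe sets of 20 other general endothelial genes 1 fell and 0 rose, against 1.23% of all probe sets that fell. Of the 36, 32 had a negative difference, against 52.1% of all probe sets, and the median was -0.31. The probe set that fell was that of Nos3, the endothelial nitric oxide synthase (-0.51 ± 0.11, adjusted p = 0.0283, limma). Icam2 (-0.49 ± 0.12) and Ptprb (-0.99 ± 0.28), an adhesion molecule and a phosphatase of endothelial cells, were not past it.

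Genes of continuous capillaries and of basement membrane, which sinusoids gain when they lose their openings, showed no rise past the threshold. Of 17 probe sets 0 passed in either direction in limma, with a median difference of -0.06. Vwf, the von Willebrand factor of larger vessels, differed by 0.31 ± 0.18 (adjusted p = 0.423, limma), and the basement membrane genes Col4a2 and Col4a1 by -0.48 ± 0.15 and -0.58 ± 0.21.

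Kdr and Flt4 are receptors of the VEGF pathway. Of 22 probe sets of its ligands and other receptors 3 fell and 0 rose, against 1.23% of all probe sets that fell. All 3 belong to Nrp1, the co-receptor neuropilin, which other cell types also carry. In 1448944_at it read 0.19, -0.27, -0.23, -0.22 and -0.42 in the HFD arrays, against 0.60, 1.02, 0.88 and 0.58 in the control arrays. Unlike in most endothelial probe sets above, HFD replicate 4 stood with the other HFD arrays, and the difference was -0.96 ± 0.13 (adjusted p = 0.00480, limma). Another Nrp1 probe set, 1457198_at, overlapped between the groups and differed by -1.52 ± 0.51, not past the threshold (adjusted p = 0.156, limma). The ligand genes Vegfb and Vegfc (probe set 1439766_x_at) differed by -0.35 ± 0.12 and 0.37 ± 0.13 and were not past the threshold. Vegfc probe sets 1440739_at and 1419417_at differed by 0.33 ± 0.14 and -0.06 ± 0.13.

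Among 16 probe sets of other endothelial signals to hepatocytes 0 passed in limma. Bmp6, which acts with Bmp2 on hepcidin, differed by -0.48 ± 0.15 (adjusted p = 0.120, limma), Dll4, a Notch ligand, by -0.35 ± 0.12 and Hgf, the hepatocyte growth factor, by -0.28 ± 0.10. Of 7 probe sets of hepatocyte genes that respond to bone morphogenetic proteins 0 passed in limma. Hamp, the hepcidin gene, differed by -0.58 ± 0.22 (adjusted p = 0.221, limma), Id1 by -0.51 ± 0.36 and Atoh8 by 0.15 ± 0.12.

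**Figure D4:**
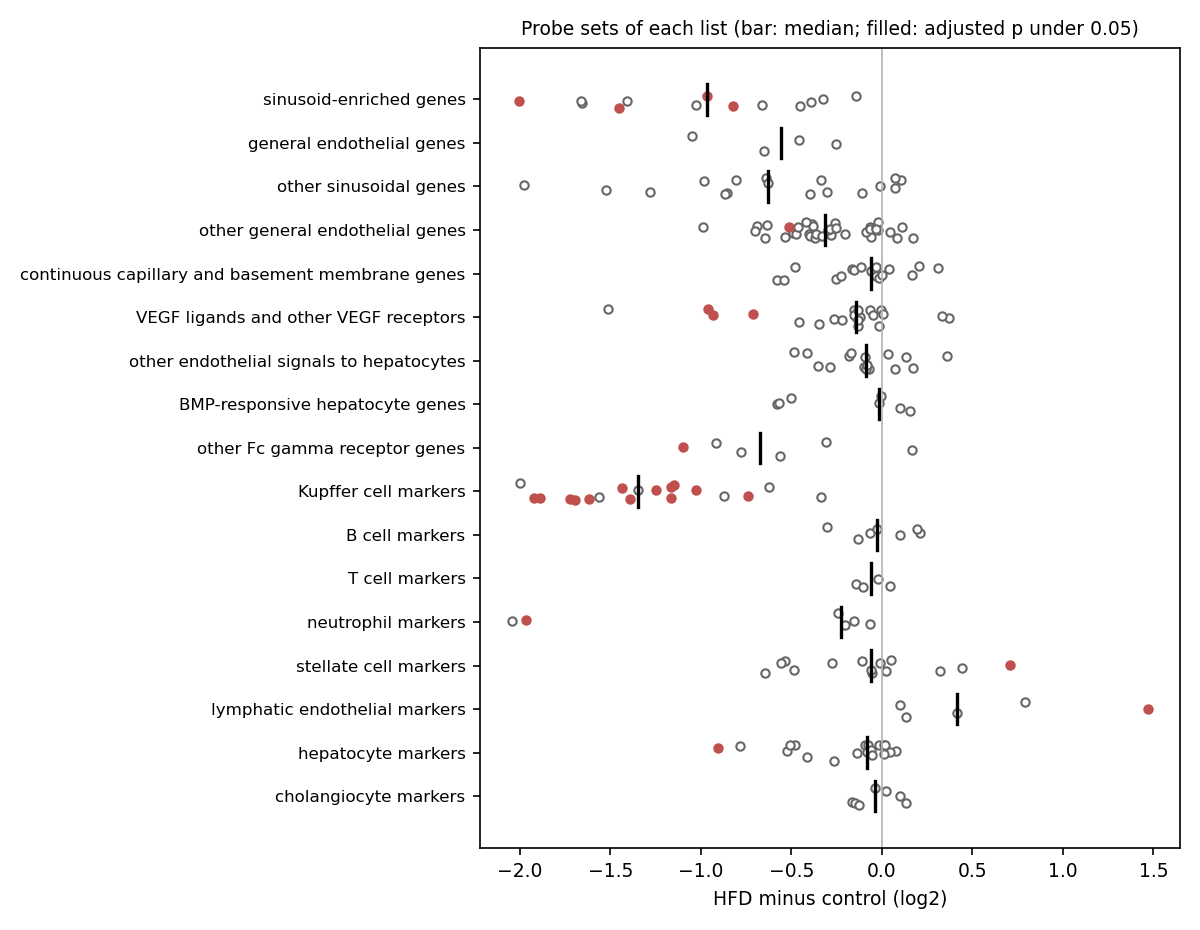
Difference in log2 signal, HFD minus control (x axis), for every probe set of the 17 gene lists (y axis), with a bar at the median of a list and filled points past the threshold. The medians of the sinusoid-enriched genes (-0.97), the Kupffer cell markers (-1.35) and the other Fc gamma receptor genes (-0.67) lie farthest to the left.

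The genes whose probe sets followed the sinusoid-enriched mean most closely were sought over the 9 arrays, with the group mean taken out of both, among 32784 probe sets of other named genes. Tmem88 had a Pearson r of 0.99, Aqp1, a water channel, 0.98, Ptprb (probe set 1427486_at) 0.98, Spty2d1 0.97 and Tgfbr3, a co-receptor for TGF-beta, 0.97. Their HFD minus control differences were -0.61 ± 0.24, -1.53 ± 0.38, -0.69 ± 0.26, -0.32 ± 0.21 and -0.59 ± 0.15, none of them past the threshold. These values describe the best of many probe sets over few arrays and carry no test.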

How the data were processed

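Per the labels' protocols, biotin-labelled RNA amplified from total liver RNA was measured on GeneChip arrays of Affymetrix. The authors used RMA and quantile normalization and then set the median of all samples as the baseline of a probe set, per the series' design text. The deposited values were read as log2 differences from that baseline, since RMA gives log2 values, while the log base itself is not given in the sources used here. For 92.8% of probe sets the middle values included 2 of equal size and opposite sign (within 1e-05), so that the baseline was a median over an even number of arrays and not over these 9 alone.

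The table held 41842 probe sets, and the 60 for array controls were not used. The annotation gave 32801 of the others 1 gene symbol, 862 several and 8119 none, and all 10 genes matched the RefSeq gene table by Entrez ID. Arrays were grouped by the diet label and numbered in order of deposition. The test was limma 3.58.1 (lmFit, then eBayes) under R 4.3.3 with the diet group as the single term (two-sided, Benjamini-Hochberg over 41782 probe sets, threshold 0.05), each probe set on its own. The gene was not reduced to its most variable probe set, because a difference between the groups adds to that variation.

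The 10 genes and the 17 gene lists were chosen with earlier results of these data known, so that lists are given by counts and medians without a test. Besides all probe sets of the 10 genes, up to 3 genes of each list with the lowest p are named, and the 5 genes most like the sinusoid-enriched mean. The test was also tested on simulated data. There the 41782 probe sets kept their measured variances and 200 were changed. The fit of HFD against control recovered 97.7% of changes of 2 (log2), 89.4% of changes of 1 and 40.4% of changes of 0.5. Of the probe sets it called, 4.65% on average were unchanged ones. In the simulation each probe set had the same variance in both groups, and the changed probe sets were picked at random. In the 17 endothelial probe sets the HFD SD was 2.28 times the control SD at the median. The simulated rates therefore need not hold for them. Alternatives were other scalings, 1 value per gene, a filter on low variation, removal of probe sets that may bind relatives, robust eBayes, array weights, other thresholds and leaving out arrays.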

Additional observations from a re-analysis of the deposited data

Results flagged for a closer look

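Within each group of arrays, the 17 endothelial probe sets and 3 list means were searched for an array far from the others, 40 groups of values in all, of which 3 held one by Dixon's criterion. Chance gives about 1 in 20. Lyve1 probe set 1453128_at read 1.05 in HFD replicate 4, with the next HFD array at -0.15. Bmp2 read -1.05 in HFD replicate 2, with the next HFD array at -0.29. Pecam1 read 0.0426 in control replicate 4, with the next control array at 0.56.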

How the results depend on the processing

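All 17 endothelial probe sets kept a negative difference in every alternative run. The count of 4 probe sets lower past the threshold was 8 without the 25% of probe sets with the smallest SD, where fewer were tested, 2 without probe sets named _x_at or _s_at, 2 with robust eBayes and 0 when HFD replicate 5 was left out along with control replicate 1. At an adjusted p under 0.01 it was 0 and at 0.10 it was 9. With 1 array left out in turn it ran from 0 to 10. The count of all probe sets past the threshold, 1363, was 905 genes with probe sets averaged, 369 at 0.01 and 2387 at 0.10, and ran from 546 to 1481 with 1 array left out. The median difference of the 17 probe sets (-0.82) ran from -0.94 to -0.70 with 1 array left out, and the sinusoid-enriched minus general difference (-0.16) from -0.19 to -0.10. That between the 2 classes of genes was -0.43 when the probe set of largest SD stood for each gene, which picks the more variable of several probe sets. With probe sets averaged, Fcgr2b, Stab1 and Bmp2 passed, and with the probe set of largest SD, Fcgr2b, Stab1 and Flt4. For single probe sets, 229 values under alternatives kept their side of the threshold, 32 lost it and 19 gained it, and the cause was not tested. Genes with several probe sets gave no value per probe set under the alternatives with 1 value per gene. No paired analysis was possible because the labels give no replicate numbers that HFD and control arrays share.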

Other observations

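Other cell type lists moved in part, where 1.23% of all probe sets fell and 2.04% rose past the threshold. Prox1, a transcription factor of lymphatic endothelium that hepatocytes also express, rose by 1.47 ± 0.24 in 1457432_at (adjusted p = 0.00988, limma). Of 5 lymphatic probe sets 1 was past the threshold, none had a negative difference, and the median was 0.42. Pdpn, a membrane protein of lymphatic vessels, differed by 0.13 ± 0.10. The lymphatic marker mean lay between 0.01 and 0.20 in the HFD arrays and between -0.46 and -0.04 in the control arrays. Every HFD array was thus above every control array in this mean. Of 14 stellate cell probe sets 1 rose, that of Lrat, which stores retinol as esters (0.71 ± 0.17, adjusted p = 0.0496, limma), and 0 fell, with Reln at -0.53 ± 0.13 and Ecm1 at -0.56 ± 0.15. The neutrophil gene S100a9 fell by 1.97 ± 0.45 (adjusted p = 0.0412, limma), the only 1 of 6 neutrophil probe sets past the threshold, and of 19 hepatocyte probe sets 1 fell, that of Hnf4a (-0.91 ± 0.18, adjusted p = 0.0248, limma). None of the 4 T cell and 7 cholangiocyte probe sets passed in limma, with median differences of -0.06 and -0.04.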
